A study of Rattus norvegicus with 12 samples.

Results

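The 76 potassium channel genes described here are the genes whose name on a whole rat genome array begins with Kcn, apart from Kcnj13 and Kcne2, which are strongly expressed in the choroid plexus. Their names and a background filter chose them: a probe had to be well above background on 3 or more of 12 arrays. The array held 105 such probes of 88 genes, 103 probes of 86 genes were left without Kcnj13 and Kcne2, and 89 probes of 76 genes passed the filter, out of 40998 probes used and 27062 genes or unnamed transcripts tested. The arrays measured RNA from the striatum of male Sprague-Dawley rats that had inhaled, for 40 minutes, plain air, carbon monoxide (CO) at 1000 or 3000 ppm, or a gas with 5% oxygen (O2). The striata of both sides were taken under pentobarbital after the brain was perfused with saline, right after air (0 h), at 0, 2, 6 and 12 h after either dose of CO, and at 0, 2 and 6 h after 5% O2. Each array is 1 rat and each combination of exposure and hour has 1 array, so no group has a replicate.

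Potassium channels let potassium leave or enter the cell, and so set the resting potential, the shape of the action potential and the rate of firing. The voltage-gated families (Kcna to Kcnd, Kcnh and Kcnq) open on depolarization, the inward rectifiers (Kcnj) hold the membrane near the potassium equilibrium, the tandem pore channels (Kcnk) carry leak current, and the Kcnn, Kcnma and Kcnt channels respond to calcium or sodium. In the medium spiny neurons that make up most of the striatum, inward rectifier and A-type potassium currents keep the cell silent between bursts of cortical input.

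A level below is the log2 processed signal of the gene's brightest probe minus the 75th percentile of its array; it is compared between arrays and never between genes, since probes differ in brightness. The 75th percentile lay between 463.5 and 805.8 intensity units, 72.9% to 78.7% of the spots of an array were well above background, and 0 spots were saturated. Slide 1, scanned in an earlier session than the others, carried air with the 0, 2 and 6 h arrays of 3000 ppm CO. Slide 2 carried the whole 1000 ppm CO series, and slide 3 the 12 h array of 3000 ppm CO with the whole 5% O2 series. Some arrays differed in markers of the dissected cells. The median of 15 medium spiny neuron markers, all 15 well above background on all 12 arrays, lay -3.19 from air on the log2 scale in 5% O2 at 0 h and -0.91 in the 6 h array of 1000 ppm CO; elsewhere it ran from 0.03 to 1.03. The median of 8 septal and thalamic markers, 6 of them above background on all arrays, ran from -3.04 in 1000 ppm CO at 2 h to 1.53 in 5% O2 at 0 h. In the first of these arrays 7 of the 8 were at least 2-fold below air, and in the other 5 were at least 2-fold above it. Lhx2 went the other way, at 0.68 and -0.33 from air. The log2 summed level of the first list ranged from 5.17 to 8.94 over the arrays, and that of the second from 2.85 to 6.93. The median of 8 choroid plexus markers was below air in all 11 exposed arrays, between -0.32 and -6.07, and Kcnj13 itself ran from -5.08 to 3.61. In RNA from a whole striatum, fewer cells of a type and less RNA per cell cannot be told apart.

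Most of the family was present. Of the 76 genes, 69 were well above background on all 12 arrays, among them the pore-forming genes Kcna1, Kcnc1, Kcnd2, Kcnj4 and Kcnk2. Just inside the filter were Kcnq1 and a second Kcnd3 probe, each on 3 arrays; Kcnrg reached 6 arrays, Kcnk18 7, Kcnmb3 9, and Kcng3 and Kcnk10 11 each. Just outside it were Kcnk15 and Kcne3, on 2 arrays each. The other genes below it were Kcna7, Kcnv2, Kcnh8, Kcnj1, Kcnj15, Kcne1, Kcne4 and Kcnmb1, on 0 or 1 array each. The gene listed as Kcnq5l is now named Kcnq5 in RefSeq.

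The levels of potassium channel genes varied widely between the 12 rats. The range of a gene over the arrays, its highest minus its lowest level, had a median of 1.49 for the 76 genes and 0.93 for all genes tested. Among genes well above background on every array the medians were 1.46 for 69 potassium channel genes and 0.84 for 23275 genes in all, and 18 potassium channel genes (26.1%) had a range over 2, against 7.42% of the larger set. Under normexp background correction, quantile normalization and the deposited series values the same 69 genes had median ranges of 1.42, 1.37 and 1.41, against 1.01, 0.84 and 0.87 for all genes. The count with a range over 2 was 10 (14.5%, against 4.08%) with normexp and was 19 and 20 under the other 2. The largest range was that of Kcnv1, at 5.05, followed among these 69 by Kcnh3 at 4.30, Kcnj4 at 4.13, Kcnj16 at 4.06, Kcnc2 at 3.90 and Kcnj6 at 3.87. Among the steadiest were Kcnj14 at 0.54, Kcnab2 at 0.65, Kcnn3 at 0.74 and Kcnn2 at 0.78. Ranges wide and narrow occurred in most subfamilies, as the heat map of levels by gene and array shows.

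**Figure D1:**
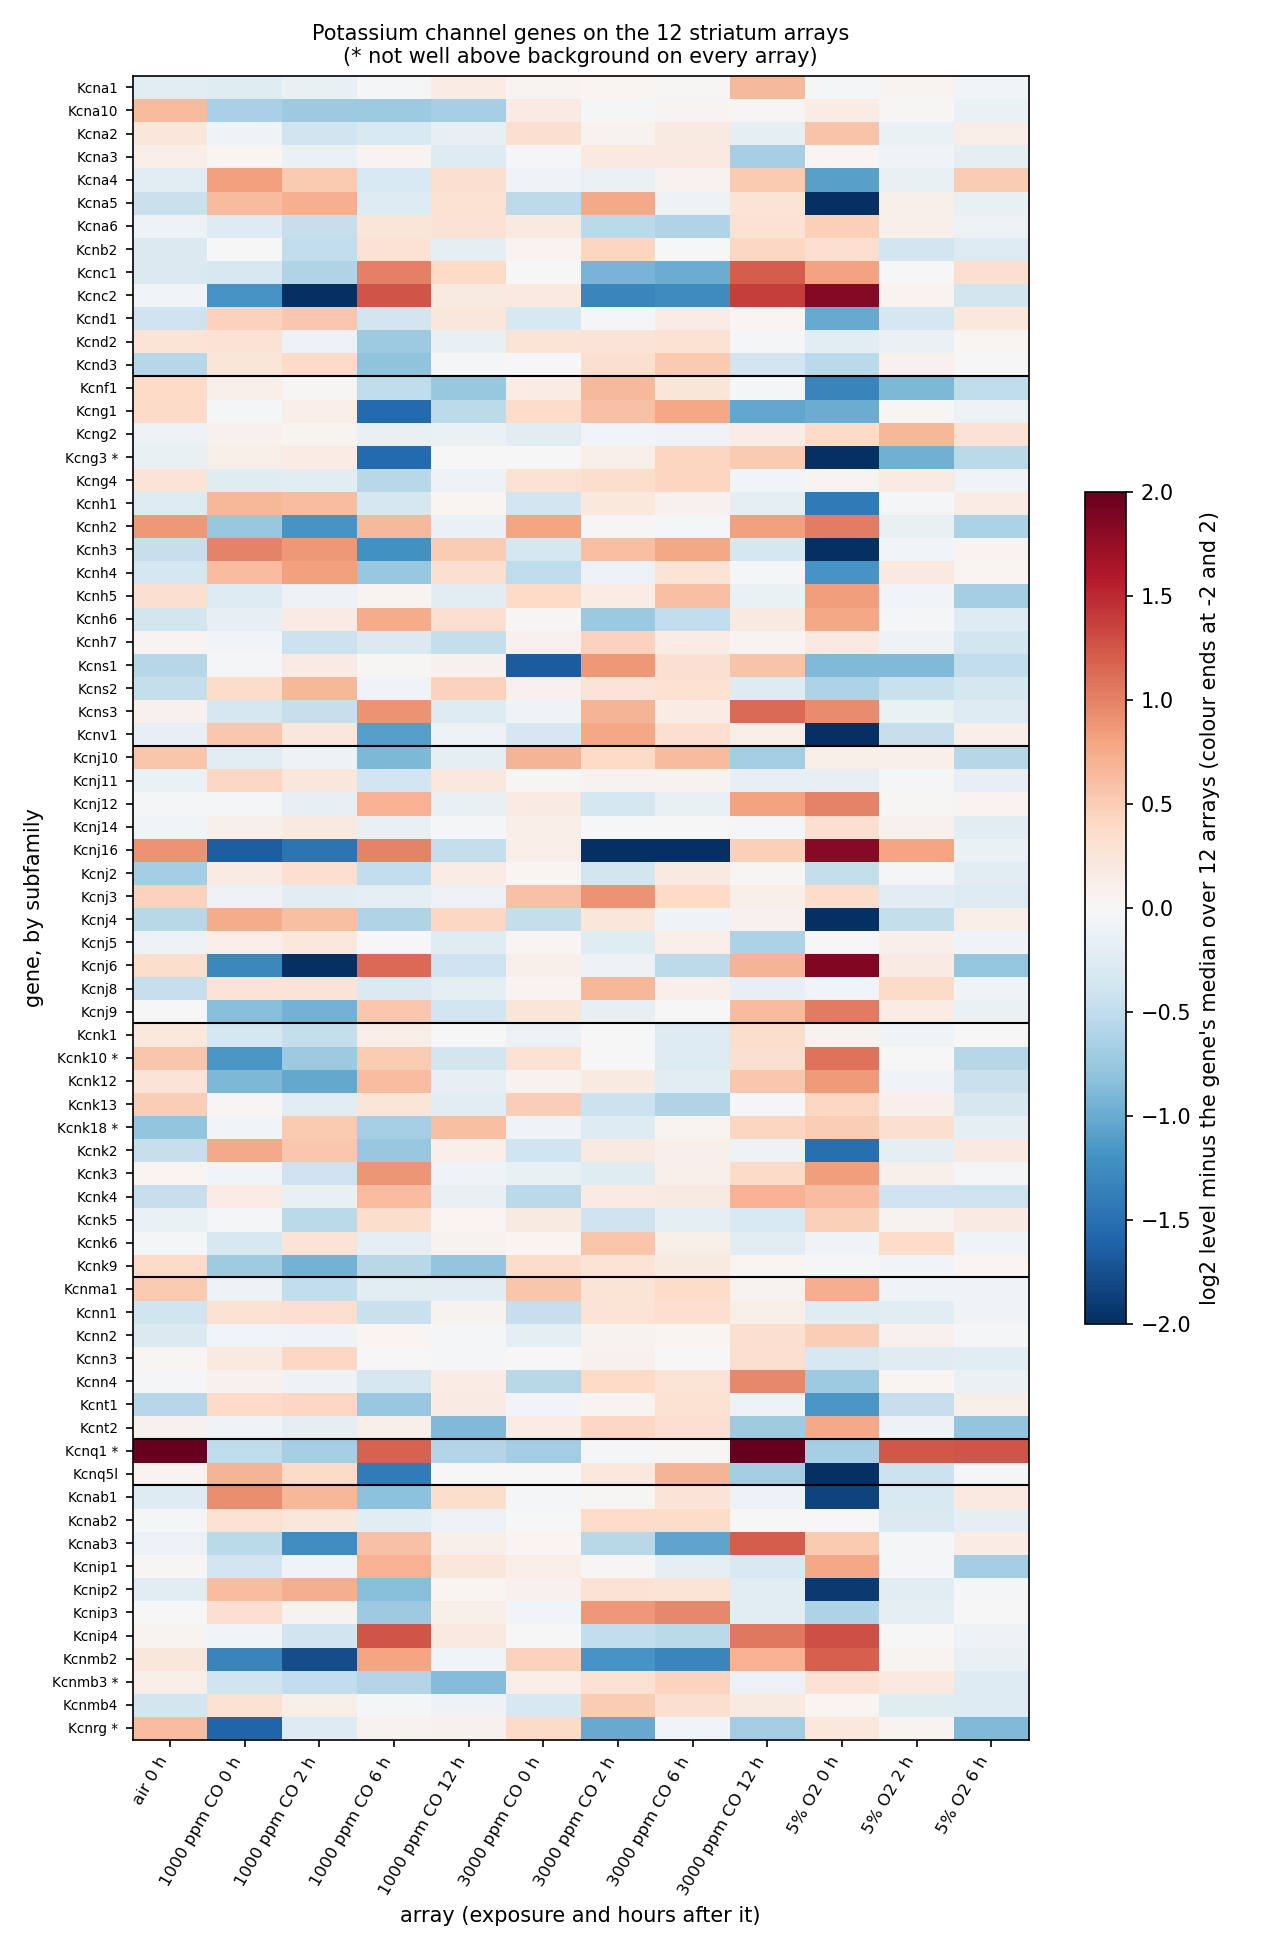
Each row is a potassium channel gene reported by name, by subfamily from Kcna at the top to the accessory subunits, each column is 1 array, and the colour is the log2 level minus the gene's median over the 12 arrays. The column of 5% O2 at 0 h holds the deepest blue and many of the deepest red cells, such as Kcnv1 (low) and Kcnc2 (high).

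Set against the single air array, which all 11 exposed arrays share, the number of potassium channel genes at least 2-fold away differed several-fold from array to array. In 5% O2 at 0 h, 8 were 2-fold higher (all genes 4.37%) and 13 lower (all genes 4.77%), 21 of 75 in all (all genes 9.14%). Kcnv1, Kcnh3 and Kcnj4 were furthest below air there and Kcnc2 furthest above. After 1000 ppm CO at 0 h, 6 were 2-fold higher (all genes 3.68%) and 9 lower (all genes 6.23%), 15 of 74 in all (all genes 9.92%). At 2 h of that dose, 7 were 2-fold higher (all genes 4.7%) and 11 lower (all genes 6.46%), 18 of 75 in all (all genes 11.2%). In both arrays Kcnj16, Kcnj6 and Kcnh2 were among the lower genes and Kcnh3, Kcnj4 and Kcna5 among the higher. At 6 h, 5 were 2-fold higher (all genes 2.73%) and 5 lower (all genes 6.61%), 10 of 74 in all (all genes 9.34%). At 12 h, 0 were 2-fold higher (all genes 3.26%) and 4 lower (all genes 4.89%), 4 of 75 in all (all genes 8.16%). The 4 lower genes at 12 h were Kcna10, Kcnf1, Kcnj16 and Kcnk9. After 3000 ppm CO at 0 h, 0 were 2-fold higher (all genes 1.89%) and 1 lower (all genes 1.92%), 1 of 75 in all (all genes 3.81%), the gene being Kcns1. At 2 h of the higher dose, 4 were 2-fold higher (all genes 2.35%) and 4 lower (all genes 3.37%), 8 of 75 in all (all genes 5.72%). Kcnj16, Kcnc2 and Kcnmb2 were lower at 2 h and again at 6 h. At 6 h of it, 2 were 2-fold higher (all genes 3.58%) and 5 lower (all genes 3.2%), 7 of 76 in all (all genes 6.78%). At 12 h of it, 7 were 2-fold higher (all genes 3.23%) and 3 lower (all genes 4.87%), 10 of 75 in all (all genes 8.1%). Kcnc1, Kcnc2 and Kcnk4 were among the higher genes at 12 h. In 5% O2 at 2 h, 0 were 2-fold higher (all genes 2.3%) and 2 lower (all genes 1.62%), 2 of 76 in all (all genes 3.92%), Kcnf1 and Kcnh2. At 6 h after 5% O2, 0 were 2-fold higher (all genes 1.32%) and 7 lower (all genes 2.52%), 7 of 74 in all (all genes 3.84%). The total share lay below that of all genes in 3 arrays (12 h after 1000 ppm CO, 0 h after 3000 ppm CO, 2 h after 5% O2) and above it in the other 8. These counts have no test, since both sides are 1 array. Over the 11 arrays, 42 of the 76 genes were 2-fold from air in some array and 34 in none. No share over all genes stands beside this count, so it does not set the family apart. The median difference from air over the members stayed between -0.08 and 0.21 in every array, and over all genes between -0.03 and 0.08.

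The split between higher and lower genes depended on the scaling. With normexp it was 25 higher and 2 lower in 1000 ppm CO at 6 h, where this correction moved the median of all genes by 0.40; it was 5 and 2 in 1000 ppm CO at 0 h, 3 and 3 at 2 h, and 4 and 1 in 3000 ppm CO at 2 h. With the deposited series values it was 9 and 8, 11 and 10, and 3 and 4 for 1000 ppm CO at 0, 2 and 12 h. For 3000 ppm CO it was 1 and 6 at 6 h and 9 and 2 at 12 h. In 5% O2 at 0 h the split was 5 and 10 with normexp, 9 and 13 with quantile normalization and 9 and 12 with the series values.

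**Figure D2:**
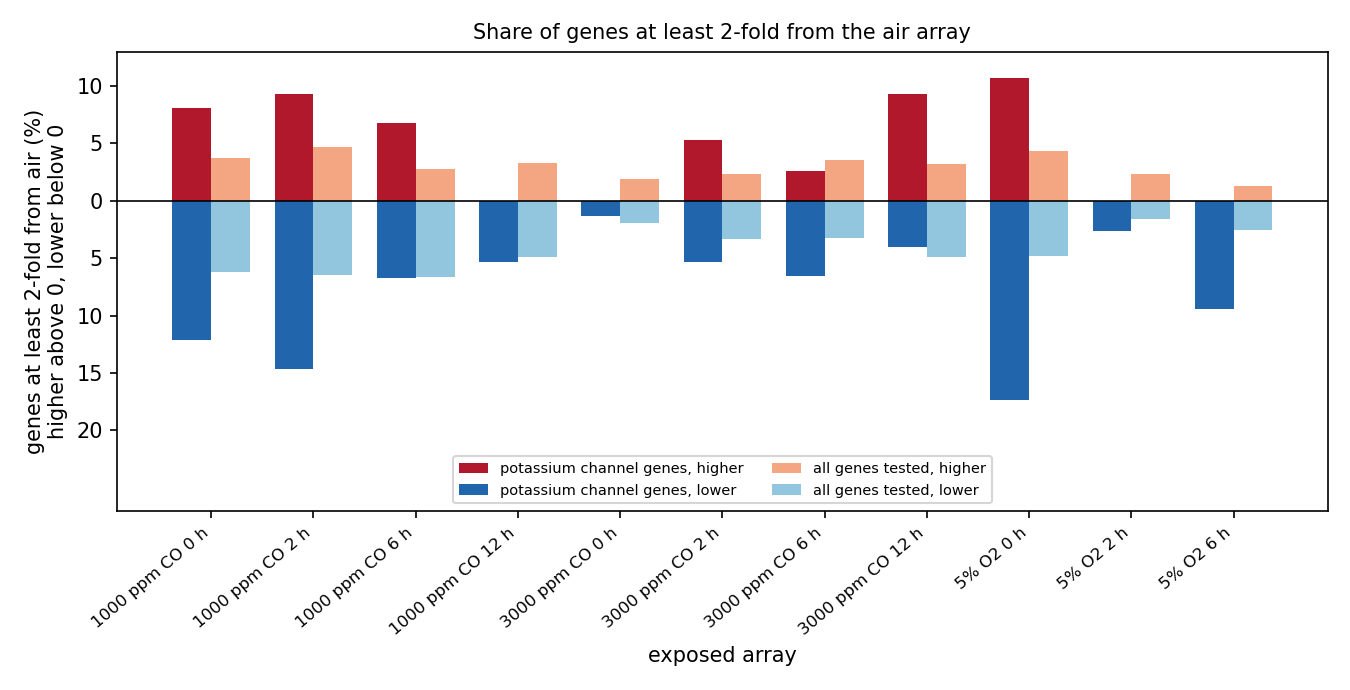
Bars give the percent of genes at least 2-fold higher (above 0) or lower (below 0) than the air array in each exposed array, for the potassium channel genes (dark) and all genes tested (light). The 5% O2 array at 0 h has the longest dark bar below 0, at 17.3%.

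The family split in opposite directions in 5% O2 at 0 h. That rat held the lowest level of 18 of the 69 genes (26.1%, against 13.4% of all genes) and the highest of 19 others (27.5%, against 13.3%). The 18 included Kcna4, Kcna5, Kcnab1, Kcnd1, Kcnf1, Kcnh1, Kcnh3, Kcnh4, Kcnip2, Kcnj4, Kcnk2, Kcnn3, Kcnn4, Kcnq5l, Kcns2, Kcnt1 and Kcnv1. The 19 were Kcna2, Kcna6, Kcnc2, Kcnh2, Kcnh5, Kcnh6, Kcnip1, Kcnip4, Kcnj12, Kcnj14, Kcnj16, Kcnj6, Kcnj9, Kcnk12, Kcnk5, Kcnma1, Kcnmb2, Kcnn2 and Kcnt2. Their order over all 12 arrays chose these 2 sets, so their differences there and on the other arrays are a description. The choice itself fixed that all 18 lay below air in that array and all 19 above it. With normexp 17 of the 18 lay below air, and all 19 lay above air under each scaling tried. These scalings reuse the arrays that chose the sets.

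The levels of the 2 sets on the other arrays, against medians that include the 5% O2 array at 0 h, are given beside those of all genes chosen the same way. All 18 genes of the first set were below their 12-array median in 1000 ppm CO at 6 h, as were 78.9% of the 3123 genes of the whole array with their lowest level in 5% O2 at 0 h. All 18 were above that median in 1000 ppm CO at 0 h, against 84.5% of those genes, and 17 at 2 h, against 87.4%. Of the second set, 16 of 19 were above their median in 1000 ppm CO at 6 h, against 69.7% of 3104 genes highest in the same array, and 18 and 17 were below it at 0 and 2 h, against 71.8% and 76.3%. At 2 and 6 h of 3000 ppm CO, 11 and 12 of the 19 were below their median, against 77.0% and 72.4%. In air 11 of the 19 were above their median, where 53.8% of the larger set were below, and at 12 h of 1000 ppm CO 13 of the 19 were below, against 49.9%. The medium spiny neuron markers had their low medians in the same arrays as the first set, 5% O2 at 0 h and 1000 ppm CO at 6 h, and the septal and thalamic markers their high medians there; the part of tissue makeup in these differences was not tested.

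**Figure D3:**
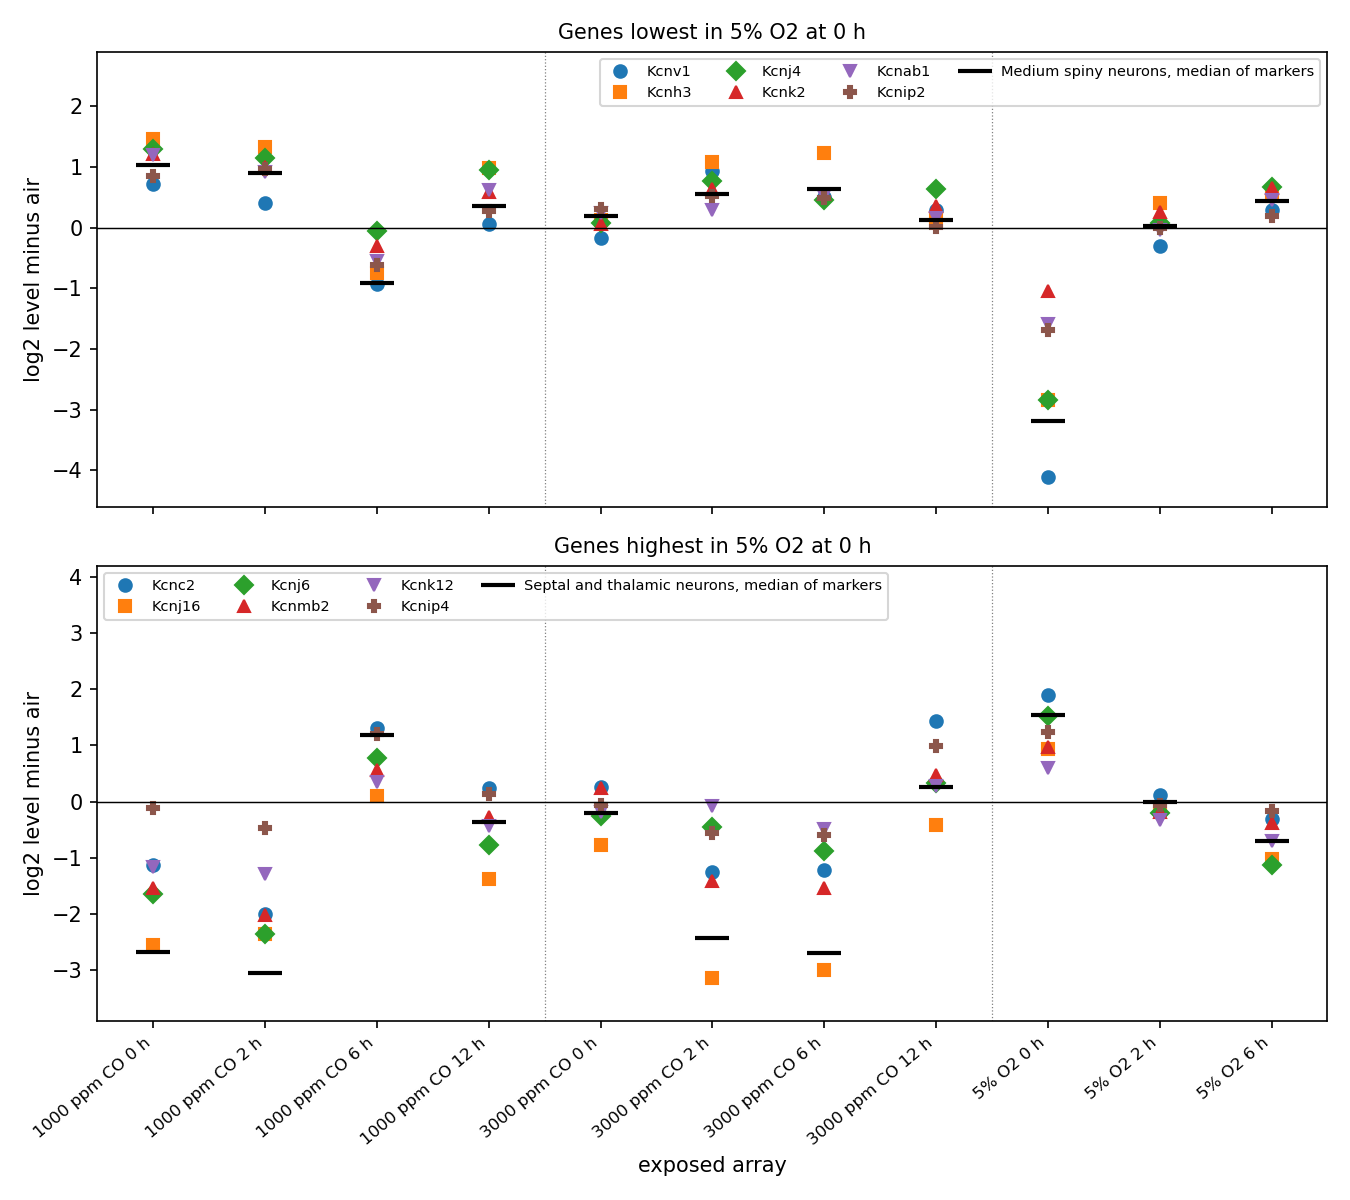
Points are log2 levels minus the air array for 6 genes lowest (upper panel) and 6 highest (lower panel) in 5% O2 at 0 h, and black bars are the median of the medium spiny or the septal and thalamic markers. In the upper panel the points fall to between -4.11 and -1.04 in 5% O2 at 0 h, where the marker median is -3.19.

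Upstream sequence is shown for 4 of these genes, Kcnj4 and Kcnab1 of the first set and Kcnc2 and Kcnj16 of the second, because they lay on opposite sides of air in the same rats. Each is the 250 bases before the gene's start on the RefSeq assembly GRCr8, written 5′ to 3′ along the gene's strand, with motif matches in capitals. Positions of matches count from the gene's start. Kcnc2 has 2 promoter entries, and the one with the lower start coordinate is shown.
Kcnj4, chr7:112954548-112954797 (- strand): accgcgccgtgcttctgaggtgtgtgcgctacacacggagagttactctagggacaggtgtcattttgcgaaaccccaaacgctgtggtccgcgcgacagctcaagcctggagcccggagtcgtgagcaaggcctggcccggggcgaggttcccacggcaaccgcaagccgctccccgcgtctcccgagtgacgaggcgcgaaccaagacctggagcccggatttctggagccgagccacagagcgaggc
Kcnab1, chr2:151614301-151614550 (+ strand): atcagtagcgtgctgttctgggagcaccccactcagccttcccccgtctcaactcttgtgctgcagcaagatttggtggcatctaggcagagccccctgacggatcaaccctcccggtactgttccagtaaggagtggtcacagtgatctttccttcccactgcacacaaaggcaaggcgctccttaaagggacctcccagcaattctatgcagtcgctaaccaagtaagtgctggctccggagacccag
Kcnc2, chr7:49587364-49587613 (+ strand): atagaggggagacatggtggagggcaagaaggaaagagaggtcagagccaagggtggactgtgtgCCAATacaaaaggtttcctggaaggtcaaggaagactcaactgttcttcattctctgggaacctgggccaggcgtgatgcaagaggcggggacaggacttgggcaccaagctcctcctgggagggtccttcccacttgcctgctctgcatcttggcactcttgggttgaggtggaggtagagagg
Kcnj16, chr10:96517074-96517323 (+ strand): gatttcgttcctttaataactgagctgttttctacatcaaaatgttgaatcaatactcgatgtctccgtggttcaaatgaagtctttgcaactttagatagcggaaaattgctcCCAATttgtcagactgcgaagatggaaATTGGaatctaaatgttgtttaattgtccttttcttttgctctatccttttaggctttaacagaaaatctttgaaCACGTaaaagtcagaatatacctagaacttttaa
The letters searched, on both strands, were TATAAA (the motif of that name in core promoters), CCAAT (bound by NF-Y), GGGCGG (the GC box, bound by Sp factors), ACGTG (the core of the hypoxia response element) and TGACGTCA (cAMP response element), and no match printed above overlaps another. ATTGG and CACGT in capitals are matches on the opposite strand. Kcnj16 holds CCAAT boxes from -136 and -109 and the ACGTG core from -34, and Kcnc2 a CCAAT box from -185; no match lies in these windows of Kcnj4 and Kcnab1. RefSeq promoters were matched for 50 of the 76 genes, with 55 entries. TATAAA was in 0 of the 55, against 12.9% of 33469 rat entries of the same length, CCAAT in 25.5% against 34.0%, GGGCGG in 50.9% against 30.5%, ACGTG in 9.09% against 16.6%, and TGACGTCA in 0 against 1.59%. The 5 genes with ACGTG were Kcnab3, Kcnd2, Kcnh4, Kcnj16 and Kcnk13. A match is only a run of letters, and none of these shares was tested.

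Among the 15 genes of the Kcna to Kcnd families, the Shaw-type Kcnc genes, which let interneurons fire fast, lay above air and Kcna5 below it in 5% O2 at 0 h. Kcnc2 had a level of -3.14 in air, -4.27, -5.15, -1.83 and -2.90 after 1000 ppm CO (0, 2, 6 and 12 h), -2.88, -4.39, -4.35 and -1.70 after 3000 ppm CO (same hours) and -1.24, -3.03 and -3.46 after 5% O2 (0, 2 and 6 h). It was highest in 5% O2 at 0 h, 3000 ppm CO at 12 h and 1000 ppm CO at 6 h, and lowest at 2 h in 1000 ppm CO, -2.01 from air. The level of Kcnc1 was -0.43 in air, -0.47, -0.75, 0.86 and 0.25 over the 4 hours of 1000 ppm CO, -0.13, -1.08, -1.14 and 1.06 over those of 3000 ppm CO and 0.67, -0.15 and 0.19 over the 3 hours of 5% O2. Its 3 highest arrays were the same as those of Kcnc2, with differences from air of 1.49, 1.29 and 1.10. For Kcna5 the levels were -2.17 in air, -1.08, -1.0, -2.0 and -1.42 in the 1000 ppm CO arrays, -2.25, -0.96, -1.82 and -1.45 in the 3000 ppm CO arrays and -3.85, -1.62 and -1.86 in the 5% O2 arrays, in order of hour. This delayed rectifier of the Shaker family was -1.68 from air in 5% O2 at 0 h and above air by 1.09 to 1.21 in 3 arrays, the 0 and 2 h arrays of 1000 ppm CO and the 2 h array of 3000 ppm CO. Kcna4, an A-type channel of the same family, was lowest in 5% O2 at 0 h (0.06) and highest in 1000 ppm CO at 0 h (1.96). The A-type channel Kcnd2, a main carrier of the fast transient current in neuron dendrites, stayed within a range of 1.03 and was lowest in 1000 ppm CO at 6 h, -0.99 from air.

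The probes of Kcna5, Kcna1 and Kcna6 lie side by side on rat chromosome 4 of build rn4, starting at 162896330, 163012003 and 163119201. Their ranges were 2.89, 0.89 and 1.09, and in 5% O2 at 0 h they differed from air by -1.68, 0.18 and 0.58. Neighbouring genes thus differed in direction. On chromosome 2, Kcna3, Kcna2 and Kcna10 start at 202473232, 202563948 and 202652389. In 1000 ppm CO at 12 h they differed from air by -0.38, -0.38 and -1.29.

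The modifier subunits and the ether-a-go-go family (Kcnf, Kcng, Kcns, Kcnv and Kcnh, 16 genes) held the 2 widest ranges among the 69 genes. Kcnv1 had a level of 1.81 in air, 2.52, 2.21, 0.88 and 1.86 after 1000 ppm CO (0, 2, 6 and 12 h), 1.64, 2.74, 2.31 and 2.09 after 3000 ppm CO (same hours) and -2.30, 1.51 and 2.10 after 5% O2 (0, 2 and 6 h). Kcnv1, a silent subunit that alters other voltage-gated channels, was 17.3-fold below air in 5% O2 at 0 h, and its other 11 levels lay between 0.88 and 2.74. The level of Kcnh3 was 0.27 in air, 1.72, 1.60, -0.48 and 1.24 over the 4 hours of 1000 ppm CO, 0.39, 1.34, 1.5 and 0.39 over those of 3000 ppm CO and -2.58, 0.67 and 0.79 over the 3 hours of 5% O2. This Elk-type channel of forebrain neurons was 7.18-fold below air in the same array and at least 2-fold above air in 4 others. Kcns1 stood at -3.27 in air, at -2.72, -2.53, -2.67 and -2.62 after 1000 ppm CO, at -4.36, -1.82, -2.38 and -2.12 after 3000 ppm CO and at -3.59, -3.59 and -3.19 after 5% O2, hours in order. The modifier Kcns1 had another order, lowest in 3000 ppm CO at 0 h and highest in 3000 ppm CO at 2 h. The cortical marker median was 0.08 and 1.31 from air in those arrays, and its part in this difference was not tested. Kcnh2, the Erg channel, was below air by 4.12-fold at 2 h of 1000 ppm CO and by 2.81-fold at 6 h of 5% O2, and was near air in the 0 and 12 h arrays of 3000 ppm CO. Kcng1, another modifier, was -1.94, -1.42 and -1.37 from air in 3 arrays (6 h of 1000 ppm CO, 12 h of 3000 ppm CO, 0 h of 5% O2). Kcnf1 was below air in all 3 arrays of 5% O2, by -1.71, -1.28 and -0.89. Kcng3 was 6.31-fold lower than in air in 5% O2 at 0 h, where its signal was not well above background. In 5% O2 at 0 h 6 genes of these families were 2-fold lower and 1 was 2-fold higher.

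Of 12 inward rectifier genes, Kcnj4 fell into the first set and Kcnj16 and Kcnj6 into the second. The level of Kcnj4 was -0.31 in air, 0.97, 0.84, -0.37 and 0.64 over the 4 hours of 1000 ppm CO, -0.24, 0.45, 0.15 and 0.32 over those of 3000 ppm CO and -3.15, -0.23 and 0.36 over the 3 hours of 5% O2. Kcnj4, a strong inward rectifier of forebrain neurons, was 7.15-fold below air in 5% O2 at 0 h and below air in 1 other array, 1000 ppm CO at 6 h, by 1.04-fold. For Kcnj16 the levels were 0.17 in air, -2.39, -2.19, 0.26 and -1.21 in the 1000 ppm CO arrays, -0.60, -2.97, -2.83 and -0.25 in the 3000 ppm CO arrays and 1.10, 0.05 and -0.86 in the 5% O2 arrays, in order of hour. Kcnj16, whose product pairs with that of Kcnj10 into a pH-sensitive channel, was below air in 9 of 11 arrays, by 8.78-fold in 3000 ppm CO at 2 h. Kcnj6 had a level of -2.95 in air, -4.6, -5.30, -2.18 and -3.73 after 1000 ppm CO (0, 2, 6 and 12 h), -3.21, -3.41, -3.83 and -2.63 after 3000 ppm CO (same hours) and -1.44, -3.15 and -4.08 after 5% O2 (0, 2 and 6 h). Kcnj6, a channel opened by G proteins, was below air by 5.11-fold at 2 h of 1000 ppm CO and above it by 2.86-fold in 5% O2 at 0 h. Its partner Kcnj9 took the same directions in those arrays, -0.94 and 1.05 from air, while the brightest probe of Kcnj3, a further partner, was -0.69 and -0.10 from it. The 2 other probes of Kcnj3 were -0.73 and 0.69 from air in that 1000 ppm CO array. In 5% O2 at 0 h both lay above air, by 0.86 and 0.99. Kcnj10, the main inward rectifier of astrocytes, was -1.45 from air in 1000 ppm CO at 6 h, but 0.66 with normexp, and -1.25 in 3000 ppm CO at 12 h. Kcnj8 and Kcnj11, the pore subunits of channels gated by ATP, had ranges of 1.12 and 0.80. Kcnj8, found in pericytes and smooth muscle, was above air in all 11 arrays, by 0.17 to 1.12, with 1 array at 2-fold; its air level was its lowest. Kcnj16 and Kcnj2 are neighbours on chromosome 10 of rn4, at 100515861 and 100576107. Kcnj2 was above air in all 11 arrays, by 0.19 to 1.02, so its air level, like that of Kcnj8, was its lowest. The air array held the lowest level of 4 of the 69 genes (5.80%), against 10.5% of all genes well above background on every array.

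None of the 11 tandem pore genes had a range as wide as those of Kcnj4, Kcnj16 and Kcnj6. For Kcnk2 the levels were 3.42 in air, 4.63, 4.42, 3.12 and 4.00 in the 1000 ppm CO arrays, 3.47, 4.05, 3.97 and 3.77 in the 3000 ppm CO arrays and 2.37, 3.68 and 4.06 in the 5% O2 arrays, in order of hour. Kcnk2, a leak channel opened by stretch and lipids, was -1.04 from air in 5% O2 at 0 h and 1.22 and 1.0 above it in 1000 ppm CO at 0 and 2 h. Kcnk12 stood at -1.98 in air, at -3.14, -3.27, -1.63 and -2.41 after 1000 ppm CO, at -2.16, -2.07, -2.47 and -1.70 after 3000 ppm CO and at -1.38, -2.32 and -2.68 after 5% O2, hours in order. It was lowest in those 2 arrays of 1000 ppm CO and highest in 5% O2 at 0 h. Kcnk10, a relative of Kcnk2, was 3.27-fold below air in 1000 ppm CO at 0 h, where it was not well above background. Kcnk4 was at least 2-fold above air in the same 3 arrays as Kcnc1, by 1.08 to 1.15 on the log2 scale. Kcnk1, Kcnk3, Kcnk5 and Kcnk6 were not 2-fold from air in any array. Kcnk18 was not well above background in air, so its differences from air are bounds, the highest at least 1.68-fold above air in 1000 ppm CO at 12 h.

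By their brightest probes, channels gated by calcium or sodium stayed nearer to air. Of 7 genes, Kcnma1 alone passed 2-fold by that measure, in 1 array, 1000 ppm CO at 2 h. Its second probe was -0.18 from air there. A second probe of Kcnt2 was -1.15 from air in 5% O2 at 6 h. In 3000 ppm CO at 12 h it was -1.91 from air but not well above background. Kcnn4 had a level of -3.17 in air, -3.05, -3.24, -3.47 and -2.99 after 1000 ppm CO (0, 2, 6 and 12 h), -3.69, -2.74, -2.86 and -2.18 after 3000 ppm CO (same hours) and -3.87, -3.10 and -3.27 after 5% O2 (0, 2 and 6 h). The level of Kcnt2 was -2.0 in air, -2.17, -2.27, -1.97 and -2.96 over the 4 hours of 1000 ppm CO, -1.93, -1.67, -1.74 and -2.80 over those of 3000 ppm CO and -1.33, -2.19 and -2.87 over the 3 hours of 5% O2. For Kcnt1 the levels were -0.20 in air, 0.76, 0.78, -0.39 and 0.53 in the 1000 ppm CO arrays, 0.31, 0.43, 0.67 and 0.26 in the 3000 ppm CO arrays and -0.80, -0.10 and 0.49 in the 5% O2 arrays, in order of hour. Kcnn4, of intermediate conductance, was highest in 3000 ppm CO at 12 h and lowest in 5% O2 at 0 h, Kcnt2 was highest in 5% O2 at 0 h, and Kcnt1 was lowest there. The small conductance channels Kcnn1, Kcnn2 and Kcnn3, which set the pause after a spike, had ranges of 0.79, 0.78 and 0.74.

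The Kcnq genes encode voltage-gated channels; Kcnq5 carries part of the M current of neurons, which muscarinic receptors close, and Kcnq1 works in heart and epithelia. Kcnq5l stood at -1.21 in air, at -0.58, -0.88, -2.67 and -1.28 after 1000 ppm CO, at -1.25, -1.05, -0.59 and -1.97 after 3000 ppm CO and at -3.55, -1.70 and -1.31 after 5% O2, hours in order. It had its lowest levels at 6 h of 1000 ppm CO and 0 h of 5% O2, -1.46 and -2.34 from air. Kcnq1 was well above background on 3 arrays and stood 4.82-fold above air in 3000 ppm CO at 12 h, a difference of 2.27 that turned to -0.56 with normexp.

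The accessory group (Kcnab, Kcnip, Kcnmb and Kcnrg, 11 genes) held members of both sets. Kcnmb2 had a level of -1.91 in air, -3.46, -3.92, -1.34 and -2.19 after 1000 ppm CO (0, 2, 6 and 12 h), -1.68, -3.32, -3.45 and -1.44 after 3000 ppm CO (same hours) and -0.95, -2.09 and -2.29 after 5% O2 (0, 2 and 6 h). Kcnmb2, a beta subunit that inactivates the calcium-activated channel of Kcnma1, was low in 4 arrays (0 and 2 h of 1000 ppm CO, 2 and 6 h of 3000 ppm CO), by -1.41 to -2.01 from air. The level of Kcnab1 was 0.17 in air, 1.37, 1.09, -0.38 and 0.79 over the 4 hours of 1000 ppm CO, 0.41, 0.46, 0.69 and 0.33 over those of 3000 ppm CO and -1.41, 0.13 and 0.63 over the 3 hours of 5% O2. For Kcnip2 the levels were -0.05 in air, 0.79, 0.90, -0.68 and 0.22 in the 1000 ppm CO arrays, 0.26, 0.46, 0.44 and -0.05 in the 3000 ppm CO arrays and -1.74, -0.06 and 0.13 in the 5% O2 arrays, in order of hour. Kcnab1, a cytoplasmic subunit of Shaker channels, and Kcnip2, a calcium-binding partner of Kcnd channels, were lowest in 5% O2 at 0 h and next lowest in 1000 ppm CO at 6 h. Kcnip4, of the same family as Kcnip2, was higher, 1.24 and 1.20 from air in those arrays. Kcnip1 was also above air there, by 0.75 and 0.67, and Kcnip3 below, by -0.63 and -0.74. Kcnab2 stayed within a range of 0.65.

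Several genes had more than 1 probe, and these did not always agree. Of the 10 genes with several member probes, Kcnq5l and Kcnab1 had second probes at -2.45 and -2.02 from air in 5% O2 at 0 h, beside -2.34 and -1.59 of the first. A second probe of Kcnma1, a gene with many splice forms, was 0.25 above air at 0 h of 1000 ppm CO, where the brightest was -0.65 from it, and their signs matched in 5 of 11 arrays. For Kcnj3 the 2 other probes matched the sign of the brightest in 6 and 3 of 11 arrays, and for Kcng2 in 4 and 3.

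In the model of exposure and hour on all 12 arrays, 3 potassium channel genes differed between the doses of CO. Kcnk9, an acid-sensitive leak channel, was 0.97 ± 0.11 (log2, SE) higher in 3000 than in 1000 ppm CO, with a limma adjusted p of 0.00766. Kcna10, a Shaker-type channel, was 0.75 ± 0.09 higher with a limma adjusted p of 0.00839, but -0.18 with normexp. Kcnmb3, a beta subunit of the Kcnma1 channel, was 0.78 ± 0.14 higher with a limma adjusted p of 0.0275, but -0.49 with normexp. These are 3 of 76 genes, a share below the 5.31% of all genes called in this comparison; at an unadjusted p under 0.05 there were 10 (13.2%), against 19.7% of all genes. Kcnk9 stood at 0.14 in air, at -0.95, -1.19, -0.79 and -1.03 after 1000 ppm CO, at 0.13, 0.03, -0.06 and -0.19 after 3000 ppm CO and at -0.29, -0.30 and -0.19 after 5% O2, hours in order. Kcna10 had a level of -2.83 in air, -4.10, -4.18, -4.19 and -4.12 after 1000 ppm CO (0, 2, 6 and 12 h), -3.29, -3.47, -3.39 and -3.43 after 3000 ppm CO (same hours) and -3.30, -3.44 and -3.59 after 5% O2 (0, 2 and 6 h). The level of Kcnmb3 was -4.81 in air, -5.33, -5.42, -5.52 and -5.79 over the 4 hours of 1000 ppm CO, -4.79, -4.63, -4.48 and -5.04 over those of 3000 ppm CO and -4.64, -4.73 and -5.18 over the 3 hours of 5% O2. For each gene all 4 arrays of 1000 ppm CO lay below all 8 others. This held for 5 potassium channel genes, with Kcng4 and Kcnma1, and for 5.76% of all genes. For Kcnma1 it held for the brightest probe but not the second, which was at -0.46 in 1000 ppm CO at 0 h and -0.71 in air. The air array lay within the 3000 ppm CO levels for Kcnmb3 and above them for Kcna10 and Kcnk9. Kcnmb3 was well above background in only 1 of the 4 arrays of 1000 ppm CO, so its low levels there are near the detection limit.

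These 3 differences cannot be told apart from the slide, because slide 2 held every 1000 ppm CO array and no slide holds both doses. With slide as a random block 0 of the 3 were called, each at an adjusted p of 1.0. With normexp 0 were called, Kcnk9 at 0.80 and an adjusted p of 0.0941, and Kcna10 and Kcnmb3 turned sign as given above. With the medium spiny marker level as a covariate the 3 differences were 0.97, 0.75 and 0.78, and limma adjusted p was 0.0121, 0.0122 and 0.0332. Leaving out 1 array changed the count: to 0 without 3000 ppm CO at 2 h, to 1 without 3000 ppm CO at 0 h, and to 5 without any of the 6 h array of 1000 ppm CO and the 12 h arrays of either dose.

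**Figure D4:**
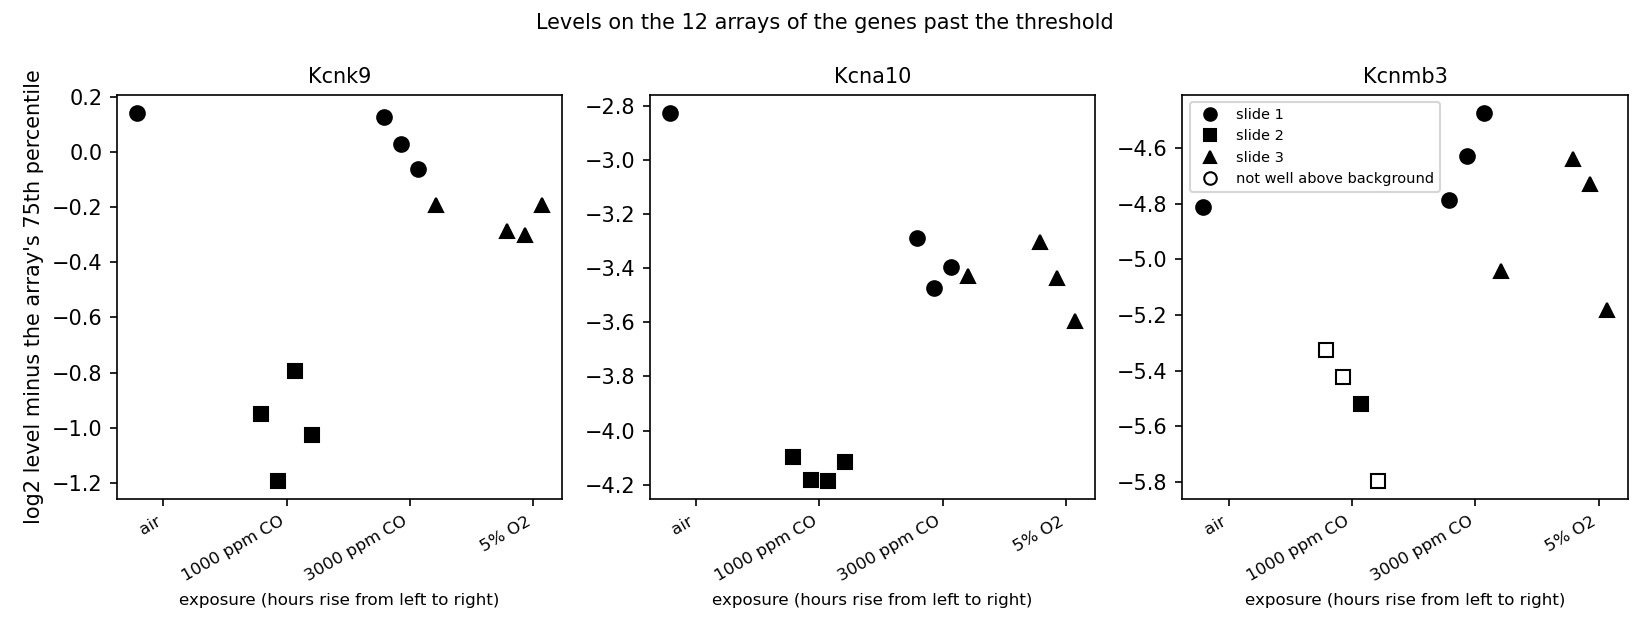
Points are the log2 levels of Kcnk9, Kcna10 and Kcnmb3 on the 12 arrays by exposure, with hours from left to right, the slide as the symbol and open symbols for arrays not well above background. The 4 squares of slide 2, all 1000 ppm CO, lie below the other 8 points in each panel.

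Against 5% O2, 1000 ppm CO had 1 call, Kcna10, lower, at -0.70 ± 0.10 (log2, SE) with a limma adjusted p of 0.0464 but 0.22 higher with normexp, where 0.543% of all genes were called. This call was at the threshold: it was kept without 1000 ppm CO at 6 h, when 12 members were called, and without the air array, and was lost without any other single array. Slide 2 held every 1000 ppm CO array and slide 3 every 5% O2 array, so this comparison cannot be told apart from the slide either. At an unadjusted p under 0.05 there were 10 members (13.2%), against 12.7% of all genes. Kcnk9 was next, at -0.70 ± 0.13 and an adjusted p of 0.0807. Between 3000 ppm CO and 5% O2 limma called 0 of 76 members and 0.0% of all genes, with 7 members at an unadjusted p under 0.05 (9.21%, against 14.4% of all genes). The smallest of these p-values was that of Kcnf1, 1.28 ± 0.25 higher in 3000 ppm CO, with an adjusted p of 0.226. All 3 arrays of 5% O2 lay below all 4 of 3000 ppm CO for Kcnf1, Kcng3, Kcnn3 and Kcns2 (4 of 76, against 4.98% of all genes) and above them for Kcng2 (against 5.3%).

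Against air, which is 1 array, limma called 0 of 76 members in each of the 3 exposures, and 0.152%, 0.00739% and 0.0037% of all genes for 1000 ppm CO, 3000 ppm CO and 5% O2. At an unadjusted p under 0.05 there were 3, 2 and 4 members, against 12.4%, 4.64% and 7.59% of all genes. Kcna10 came nearest, -1.22 ± 0.16 in 1000 ppm CO at an adjusted p of 0.0538, and it was called without 1000 ppm CO at 12 h or without 3000 ppm CO at 12 h. Kcnf1 in 5% O2 was -1.43 ± 0.39 from air, at an adjusted p of 0.541. The single air array enters all 3 comparisons and was assumed to vary like the others. It lies on slide 1 and every 1000 ppm CO array on slide 2, so that exposure cannot be told apart from the slide here.

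No potassium channel gene passed the test for hour after exposure. limma called 0 of 76 members at 2, 6 and 12 h against 0 h, where 0.0185%, 0.0222% and 0.0148% of all genes were called, and 5, 1 and 6 members had an unadjusted p under 0.05 (6.58%, 1.32% and 7.89%, against 3.65%, 2.75% and 5.23% of all genes). At 2 h the smallest p-values were those of Kcnk6, 0.51 ± 0.15, Kcna2, -0.43 ± 0.15, Kcnma1, -0.48 ± 0.17, Kcnk5, -0.50 ± 0.19, and Kcna5, 1.20 ± 0.47, all at an adjusted p of 0.963. At 12 h they included those of Kcna1, 0.48 ± 0.14, Kcnj5, -0.51 ± 0.17, Kcnt2, -1.12 ± 0.38, Kcnn4, 0.87 ± 0.32, and Kcna3, -0.51 ± 0.19, all at an adjusted p of 0.894. At 6 h Kcnj14 alone passed 0.05 unadjusted, at -0.31 ± 0.12 and an adjusted p of 1.0.

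Within the exposures a few genes differed alike between hours, with no test, since each hour is 1 array. From 0 to 2 h, 2 genes were lower by at least 0.5 in all 3 exposures; 1.26% of all genes were lower or higher by that much in all 3. Kcnc2 differed by -0.88 in 1000 ppm CO, -1.51 in 3000 ppm CO and -1.79 in 5% O2. Kcnab3, a further cytoplasmic subunit of Shaker channels, differed by -0.71, -0.60 and -0.56. Over the same hours the septal and thalamic marker median, against air, went from -2.68 to -3.04, from -0.21 to -2.43 and from 1.53 to -0.0011, in that order of exposures. Pvalb, a marker of fast-spiking interneurons, went from -1.02 to -2.48, from 0.29 to -1.87 and from 0.85 to 0.21. The list of 8 striatal interneuron markers that holds Pvalb did not share this fall in every exposure. Its median went from 0.574 to 0.026, from 0.026 to 0.031 and from -0.880 to -0.245. Between 0 and 12 h, which only the CO exposures hold, 4 genes were higher and 4 lower by at least 0.5 in both, against 5.37% of all genes. Kcnc2 differed by 1.37 and 1.18 in 1000 and 3000 ppm CO, Kcnc1 by 0.72 and 1.20, Kcnab3 by 0.64 and 1.16, and Kcnj6 by 0.87 and 0.58. The lower genes included Kcng1, by -0.50 and -1.41, Kcnq5l, by -0.70 and -0.71, and Kcnt2, by -0.79 and -0.86. The same 12 h arrays lie on slides 2 and 3, and the septal and thalamic marker median went, between 0 and 12 h, from -2.68 to -0.36 in 1000 ppm CO and from -0.21 to 0.26 in 3000 ppm CO. Whether these marker shifts have a part in the differences at 2 or 12 h was not tested.

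**Figure D5:**
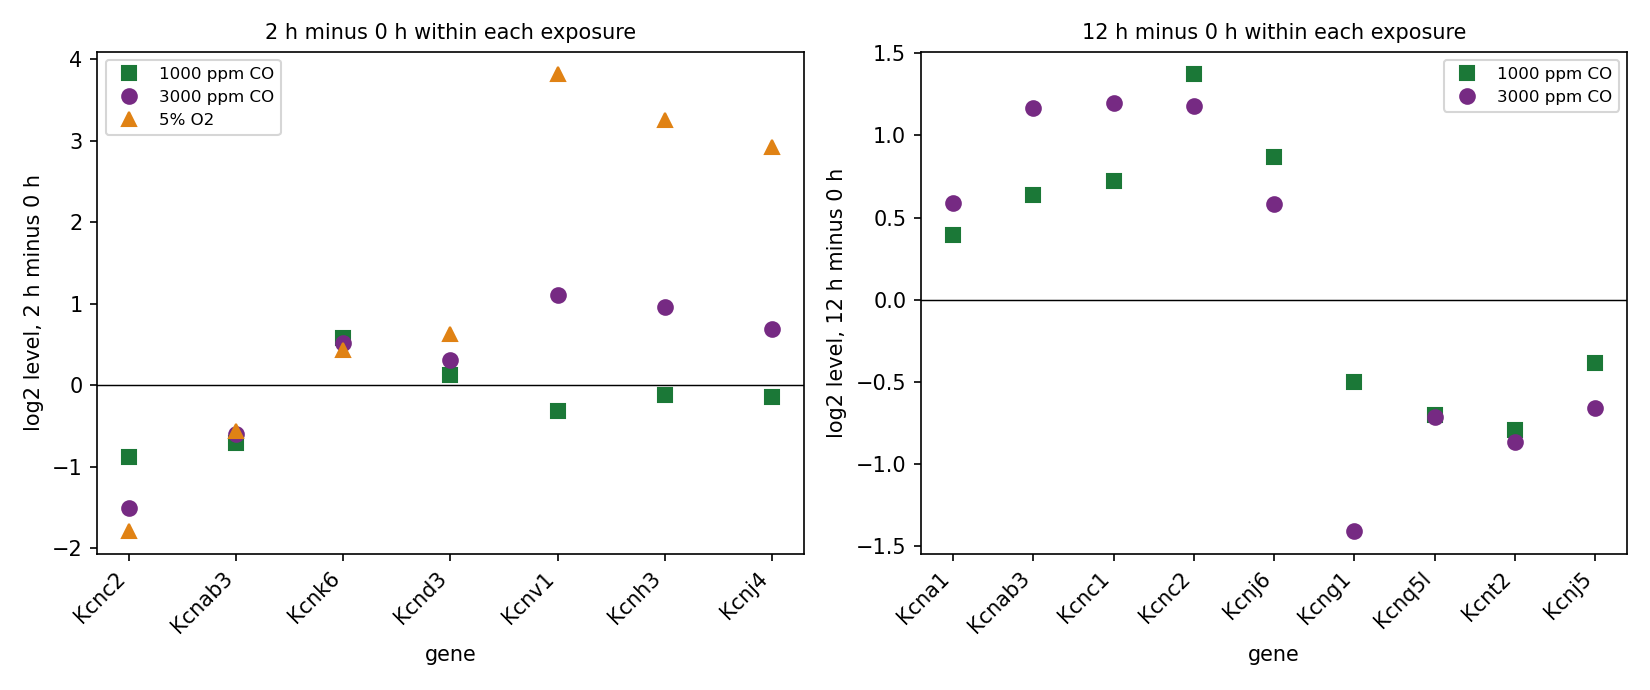
Symbols give the log2 level at 2 h minus 0 h (left) and at 12 h minus 0 h (right) within each exposure for named genes. Kcnc2 and Kcnab3 lie below 0 in all 3 exposures on the left, and Kcnv1 runs from -0.32 in 1000 ppm CO to 3.81 in 5% O2.

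Genes that act with potassium channels were counted from lists of partners, potassium transporters and Hcn channels. Of 17 listed partner proteins, 13 were tested, and limma called 0 of them over the 9 comparisons, with 0 also for 8 genes of potassium transport such as the sodium pump subunits. Over both lists and the 4 Hcn genes, at most 6 genes of a comparison had an unadjusted p under 0.05. The median difference of the partners from air stayed between -0.26 and 0.18 in every array. The scaffold genes Dlg1 and Dlg2 were -1.29 and -1.42 from air in 5% O2 at 0 h and -1.12 and -1.14 in 1000 ppm CO at 6 h, and Dpp10, a partner of Kcnd channels, was -1.01 from air in 1000 ppm CO at 2 h. Among the 4 Hcn genes, whose channels open on hyperpolarization, Hcn3 was called between the doses of CO with a limma adjusted p of 0.00934, in the comparison that called 5.31% of all genes and where dose and slide cannot be told apart. It was below air in all 4 arrays of 1000 ppm CO, by -1.12 to -1.66.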

How the data were processed

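RNA from both striata of 12 male rats, 1 per array, was measured on 1-colour Agilent arrays. The deposited intensity values are spot signals that the authors obtained with Agilent Feature Extraction 10.7.3.1, per the file headers, which subtracts background. The deposited series table holds log2 values by the authors that matched the processed signals at a correlation of at least 0.9999; it served as an alternative. Here log2 processed signal minus each array's 75th percentile was used. Spots of a probe were averaged, the brightest probe stood for a gene, and a feature was tested if well above background on 3 or more arrays. limma 3.58.1 in R 4.3.3 fitted exposure plus hour on all 12 arrays (5 residual degrees of freedom, two-sided, Benjamini-Hochberg over 27062 features, threshold 0.05); the script was tested on simulated data. With 1 rat per combination, p-values measure the spread left by this additive model. Single arrays were set against air without a test, at 2-fold. A signal both not well above background and under the array's lowest well-above signal was raised to the latter. Its fold then reads as "at least". Probe positions are on rn4, per the file headers. Genes given with every array were the 3 with the widest range in each role group, plus the genes called; a few members are not reported by name here. Members and lists were chosen with earlier results of these data known. Alternatives were normexp with an offset of 50, quantile normalization, the series table, other filters, slide as a random block, a marker covariate, and leaving out arrays.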

Additional observations from a re-analysis of the deposited data

Results flagged for a closer look

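A probe for Kcnip2 that the array names Kchip2, and that the choice by name therefore left out, carried signal. Its largest difference above the air array was 1.015 on the log2 scale, at 2 h after 3000 ppm CO, and it lay -1.23 from air at 6 h after 1000 ppm CO and -1.09 in 5% O2 at 0 h. The Kcnip2 probe used above lay 0.52, -0.62 and -1.69 from air in those arrays. The choice by name also left out a probe for Kcnk7, a tandem pore gene listed under another identifier, which was well above background on 12 arrays. It lay -1.52 from air at 12 h and -1.10 at 6 h after 1000 ppm CO, and -1.34 in 5% O2 at 0 h. These differences have no test, since each side is 1 array.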

How the results depend on the processing

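No paired analysis was possible because each group has 1 sample and the labels carry no replicate numbers. Slide could not be fitted as a fixed factor for 1000 ppm CO, which fills slide 2. Between the doses of CO the count of called genes (3) was 0 with normexp and 0 with slide as a random block, and 7 when the 6 h array of 1000 ppm CO and the 0 h array of 5% O2 were both left out. For 1000 ppm CO against 5% O2 the count (1) was 0 with normexp, quantile normalization, the series table, no filter, a trended robust prior, the slide block, the marker covariate and those 2 arrays left out. Against air, 1000 ppm CO had 1 call with no filter. Leaving out single arrays gave 0 to 5 calls between the doses, 0 to 12 for 1000 ppm CO against 5% O2, 0 to 1 for 1000 ppm CO against air, and 0 in the other 6 comparisons. With normexp the sign turned for Kcna10 (-0.18 between the doses, 0.22 for 1000 ppm CO against 5% O2), Kcnmb3 (-0.49), Kcnj10 at 6 h of 1000 ppm CO (0.66) and Kcnq1 at 12 h of 3000 ppm CO (-0.56).

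Counts of genes 2-fold from air also moved. With normexp they were 7, 6, 27 and 2 over the hours of 1000 ppm CO, 0, 5, 3 and 4 over those of 3000 ppm CO, and 0 and 1 at 2 and 6 h of 5% O2. Against the median of the 12 arrays in place of air they were 5, 7 and 0 at 0, 2 and 12 h of 1000 ppm CO, 3 and 4 at 2 and 6 h of 3000 ppm CO, and 0 and 0 at 2 and 6 h of 5% O2. With that reference 0 genes were higher in these arrays, and 6 were higher and 1 lower at 12 h of 3000 ppm CO. With the series table they were 7 at 12 h of 1000 ppm CO and 1 at 2 h of 5% O2. The cause was not tested. Dim genes such as Kcnq1, Kcnk18 and Kcnrg lie near background, where precision is lowest, and the number of arrays limits every estimate.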
